A study of Homo sapiens with 3 samples.

Results

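OLFM4 and 5 of its olfactomedin relatives (OLFM1, OLFM2, OLFML2A, OLFML2B and OLFML3) were followed across 3 bulk RNA libraries of RWPE1 cells, an immortalized line of normal human prostate epithelium. These members were chosen by name: they are the 6 rows, of 58037 genes in the count table, whose Ensembl identifiers belong to these genes. There was 1 library for each label, namely OLFM4-wild, OLFM4-knockout and OLFM4-active. The knockout cells were made with CRISPR/Cas9 double nickase plasmids aimed at OLFM4, carried a green fluorescent protein (GFP) reporter, were kept under puromycin selection and were grown as clones. Their RNA was taken in bulk from cells sorted for GFP. The methods describe GFP reporter cells called OLFM4-wild that were made with OLFM4 activation plasmids, and do not use the name OLFM4-active, so what treatment the third label stands for could not be told from the sources used here. The paper also uses OLFM4-wild for the RWPE1 cells that received the plasmids. Whether the OLFM4-wild library came from transfected, selected and sorted cells could therefore not be told either. Such differences cannot be told apart from the edit in comparisons with this library. All 3 libraries came from this 1 cell line. With 1 library per label there was no spread between replicates, so no p-value was computed, every difference is a description of these libraries, and the intervals given are 95% intervals that cover counting error only.

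The olfactomedin proteins are secreted or membrane-bound glycoproteins that share a domain at the C-terminal end, and most act outside the cell, in the matrix or at the cell surface. OLFM4 is stored in the specific granules of a subset of neutrophils and is made by crypt stem cells of the intestine and by inflamed epithelia, and in the prostate it is found in epithelial cells with stem or progenitor features. OLFM1 and OLFM2 (noelins) are best known from neurons, OLFML2A and OLFML2B (photomedins) are matrix proteins that bind chondroitin sulphate, and OLFML3 is a secreted protein that binds bone morphogenetic proteins and their processing enzymes.

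The libraries held between 16309906 and 58837147 counts assigned to genes, with the OLFM4-knockout library the deepest. The floor used for a count of 0 (3 counts) therefore lay at 0.165 CPM in OLFM4-wild, 0.0584 CPM in OLFM4-knockout and 0.126 CPM in OLFM4-active. CPM is the count divided by the library size in units of 1e6 counts, after scaling by the trimmed mean of M-values (TMM), and a log2 fold change is the difference of log2 CPM with 0.5 counts added. Scaling by plain library totals instead moves every log2 fold change by -0.35 for OLFM4-knockout against OLFM4-wild, by -0.11 when OLFM4-active is set against OLFM4-wild and by -0.24 when it is the reference for OLFM4-knockout, and values below are relative to the TMM scale. All 6 listed basal epithelial markers were expressed, which fitted the epithelial label of the cells. Their summed level was 18127 to 39818 CPM, mostly KRT5 at 12232 to 27077 CPM. Of this list the paper names KRT5, KRT14 and TP63 as basal markers. It uses CDH1 as an epithelial marker and ITGA6 as a stem or progenitor marker, and does not name EPCAM. Of the markers of other cell types, PTPRC was at 0 to 2 counts and CD3E, CDH5, COL3A1 and LUM were at 0 in all libraries. Luminal markers were mixed, with KLK3 at 0 to 2 counts but the keratins KRT8 at 282, 231 and 146 CPM and KRT18 at 177, 191 and 157 CPM in OLFM4-wild, OLFM4-knockout and OLFM4-active. The summed stromal markers lay between 22.9 and 34.2 CPM (mostly COL1A1), the leukocyte markers between 19.8 and 31.4 CPM (almost all CD68), the endothelial markers between 0.0837 and 0.605 CPM, and the neuroendocrine markers between 0.440 and 0.921 CPM.

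Which olfactomedin genes RWPE1 cells express, and how each differs between the 3 libraries, is the question taken up here. OLFML2A (ENSG00000185585, plus strand of chromosome 9, 124777133 to 124814885) and OLFM4 (ENSG00000102837, plus strand of chromosome 13, 53028813 to 53052057, GRCh38 with GENCODE 44 annotation) were the members with more than 16 counts in any library. To set the starts of these 2 genes side by side, the 250 bases before the first annotated start of each are given, 5′ to 3′, from RefSeq on GRCh38.p14. They are chr13:53028563-53028812 on the plus strand for OLFM4 and chr9:124776883-124777132 on the plus strand for OLFML2A. Capitals mark each CG pair and the letters TATAA, the only motif searched, on both strands, and the marks do not overlap.
OLFM4: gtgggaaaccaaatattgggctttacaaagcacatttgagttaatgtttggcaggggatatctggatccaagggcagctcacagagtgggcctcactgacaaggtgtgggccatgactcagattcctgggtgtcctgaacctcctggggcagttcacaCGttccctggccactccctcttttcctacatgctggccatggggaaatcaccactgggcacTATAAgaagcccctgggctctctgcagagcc
OLFML2A: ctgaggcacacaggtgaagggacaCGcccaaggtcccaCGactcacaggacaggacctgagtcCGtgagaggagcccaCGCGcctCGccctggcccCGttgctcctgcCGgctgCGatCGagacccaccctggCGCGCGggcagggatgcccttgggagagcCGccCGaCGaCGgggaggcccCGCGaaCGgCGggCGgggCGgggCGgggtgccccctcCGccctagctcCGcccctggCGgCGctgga
The OLFM4 window held 1 CG pair and 1 TATAA, which began at position -31 from the start. The OLFML2A window shown held 28 CG pairs and no TATAA. The window before another annotated start of OLFML2A, chr9:124800624-124800873, held 7 CG pairs and no TATAA, so the contrast holds for the windows shown only. Over all 35116 RefSeq windows of this length the median was 11 CG pairs (quartiles 3 and 23), and 18.9% held TATAA on either strand. More CG pairs than the OLFM4 window were held by 85.3%, and more than the OLFML2A window shown by 14.1%. All 6 members matched, with 11 windows in all, and the 10 windows of members other than OLFM4 held 2 to 31 CG pairs, with TATAA in 1 of them, an inner start of OLFM2. These letters describe the windows and do not show that a factor binds there.

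OLFM4 was measured first because its level bears on the labels. It had 214 counts in OLFM4-wild, 131 in OLFM4-knockout and 16 in the library labelled OLFM4-active. This put the library labelled OLFM4-active lowest, which goes against what its name would mean if it stood for switched-on OLFM4, and it left the knockout library well above the floor of 3 counts. As levels, these counts were 11.8 CPM (10.3 to 13.5) in OLFM4-wild, 2.55 CPM (2.13 to 3.03) in OLFM4-knockout and 0.670 CPM (0.383 to 1.09) in OLFM4-active, and none of the 3 intervals overlapped another. When each library was thinned to the depth of the shallowest, 16309906 counts, OLFM4 had 214, 41 and 11 counts, so the order was the same at equal depth. OLFM4 was 4.61-fold higher in OLFM4-wild than in OLFM4-knockout, 17.1-fold higher in OLFM4-wild than in OLFM4-active, and 3.71-fold higher in OLFM4-knockout than in OLFM4-active. In bulk libraries, fewer cells with OLFM4 and less OLFM4 RNA per cell cannot be told apart. The paper's single-cell data of RWPE1 cells detected OLFM4 RNA in only a small share of cells, and bulk levels average over all cells of a library. A count over the whole gene also does not show whether the remaining transcripts in OLFM4-knockout carried the edited sequence. The paper reports that the clones were checked by genomic PCR sequencing and by RT-PCR. The count here does not repeat those checks and cannot by itself judge the edit.

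Against all 24433 genes with at least 10 counts summed over the 3 libraries, OLFM4 stood toward the low end in both comparisons with OLFM4-wild. Its log2 fold change was -2.20 (-2.53 to -1.89) in OLFM4-knockout, and 4.72% of these genes had a lower value. It was -4.10 (-4.97 to -3.40) in OLFM4-active, where 0.859% had a lower value. Between OLFM4-knockout and OLFM4-active, which do not involve the OLFM4-wild library, it was 1.89 (1.18 to 2.78), and 2.62% had a higher value. The 2 comparisons with OLFM4-wild share that library, so an unusual value in it enters both.

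**Figure D1:**
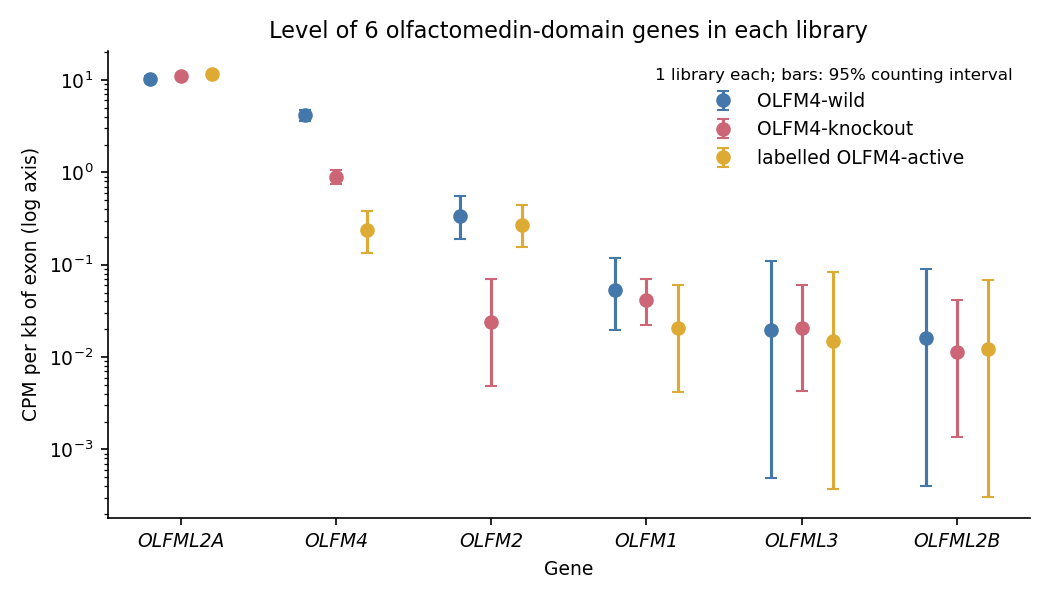
CPM per kb of exon (vertical axis, log scale) of the 6 members in each of the 3 libraries, 1 point per library with its 95% counting interval. OLFML2A sits between 10.3 and 11.7 in every library, OLFM4 steps down from 4.14 to 0.898 and 0.236, OLFM2 is low in the knockout library at 0.0237 against 0.335 and 0.272, and the intervals of OLFM1, OLFML3 and OLFML2B overlap between libraries.

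OLFML2A, a secreted photomedin, was the most abundant member. It had 1272 counts in OLFM4-wild, 3797 in OLFM4-knockout and 1887 in OLFM4-active, or 70.0 CPM (66.2 to 74.0), 74.0 CPM (71.6 to 76.4) and 79.0 CPM (75.5 to 82.6). The OLFM4-knockout interval overlapped both others, while those of OLFM4-wild and OLFM4-active lay just apart. Its log2 fold change was 0.08 (-0.01 to 0.17) in OLFM4-knockout against OLFM4-wild, which turned to -0.27 with plain library totals. It was 0.17 (0.07 to 0.28) in OLFM4-active against OLFM4-wild and -0.09 (-0.17 to -0.01) in OLFM4-knockout against OLFM4-active, the smallest absolute values among the 4 members with at least 10 counts in sum.

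OLFM2, a noelin (ENSG00000105088, minus strand of chromosome 19, 9853718 to 9936515), had 15 counts in OLFM4-wild, 3 in OLFM4-knockout and 16 in OLFM4-active. The deepest library thus held the fewest counts, and thinning to equal depth gave 15, 3 and 12. Its levels were 0.826 CPM (0.462 to 1.36), 0.0584 CPM (0.0121 to 0.171) and 0.670 CPM (0.383 to 1.09), so that the OLFM4-knockout interval lay below both others, which overlapped each other. The log2 fold change was -3.65 (-6.25 to -2.0) in OLFM4-knockout against OLFM4-wild, with 1.01% of the tested genes lower, and -3.34 (-5.94 to -1.71) in OLFM4-knockout against OLFM4-active, with 0.618% lower. OLFM4-active against OLFM4-wild gave -0.30 (-1.41 to 0.82), an interval that includes no difference. At 3 to 16 counts the size of these folds is loosely set, and after thinning, which happened to keep all 3 OLFM4-knockout counts, they were -1.83 against OLFM4-wild and -1.63 against OLFM4-active.

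OLFM1, the noelin that binds the Nogo receptor (ENSG00000130558, plus strand of chromosome 9, 135075422 to 135121180), had 6 counts in OLFM4-wild, 13 in OLFM4-knockout and 3 in OLFM4-active. These are 0.330 CPM (0.121 to 0.719), 0.253 CPM (0.135 to 0.433) and 0.126 CPM (0.0259 to 0.367), and all 3 intervals overlapped. A difference in OLFM1 was not detectable at this depth, with log2 fold changes of -0.44 (-1.88 to 1.30), -1.29 (-4.02 to 0.83) and 0.84 (-0.85 to 3.46) for OLFM4-knockout and OLFM4-active against OLFM4-wild and for the former against the latter. OLFML2B (ENSG00000162745, minus strand of chromosome 1, 161983192 to 162023869) had 1, 2 and 1 counts in the same order of libraries, and OLFML3 (ENSG00000116774, plus strand of chromosome 1, 113979391 to 114035572) had 1, 3 and 1. Neither rose above the floor, so no fold is given for them, and OLFML3 shares its locus with 2 other annotated genes, RPL13AP10 and ENSG00000282048, that both had 0 counts.

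Of the 6 members, 4 had at least 10 counts in sum and 2 (OLFML2B and OLFML3) did not. In OLFM4-knockout against OLFM4-wild, 2 of these 4 (OLFM4 and OLFM2) lay below a log2 fold change of -1 and 0 lay above 1, where 16.4% of all tested genes were below and 8.72% above. In OLFM4-active against OLFM4-wild, 2 of 4 (OLFM4 and OLFM1, the latter with an interval that includes 0) lay below -1 and 0 above 1, against 14.7% and 8.42% of all tested genes. The OLFM1 value of -1.29 became -0.85 with an offset of 5 counts and -0.79 with thinned libraries, which leaves 1 of 4. In OLFM4-knockout against OLFM4-active, OLFM4 lay above 1 and OLFM2 below -1, against 7.90% and 10.6%. The medians over these 4 members were -1.32, -0.80 and 0.37, beside medians of -0.00, -0.00 and 0.04 over all tested genes. In counts of genes, the background was 2130 above and 4015 below in the first comparison and 1930 above and 2597 below in the last, which became 1183 and 5855, and 1306 and 3653, with plain library totals. With 4 members, these shares describe the members only. The same percentages of all tested genes are the background for the counts of each gene list that follows.

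**Figure D2:**
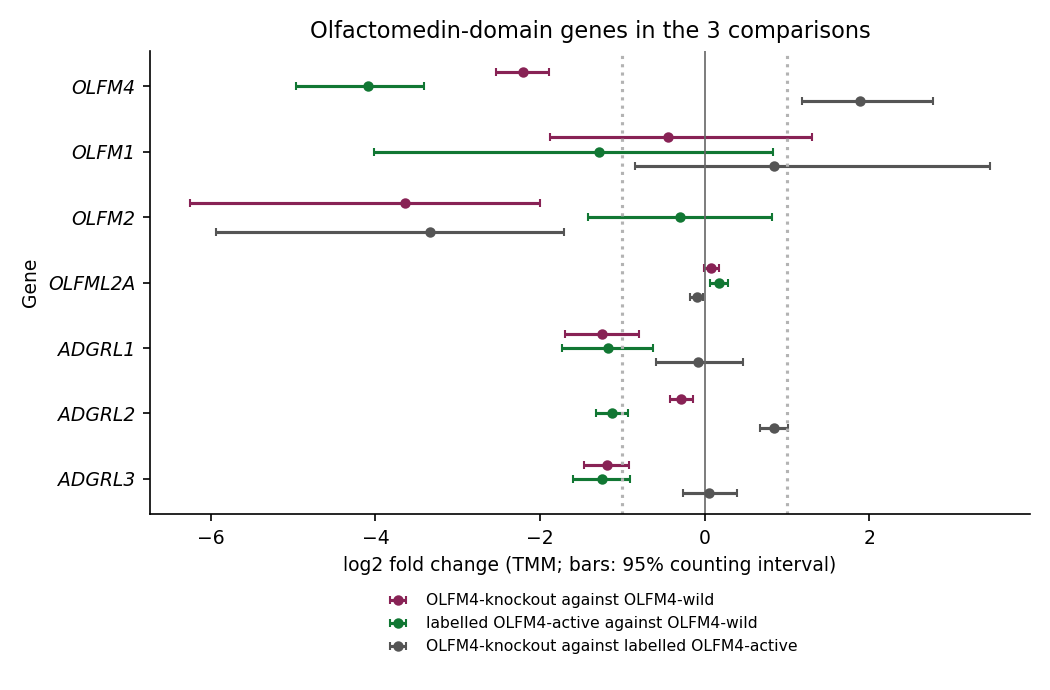
Log2 fold changes (horizontal axis, TMM scale) of the 4 members with at least 10 counts in sum and of the 3 latrophilins in the 3 comparisons, as points with 95% counting intervals and dotted lines at 2-fold. OLFM4 lies beyond 2-fold in each comparison, OLFM2 in those with OLFM4-knockout, the OLFM1 intervals all include 0, OLFML2A lies close to 0, and ADGRL1 and ADGRL3 lie beyond 2-fold below OLFM4-wild in both other libraries.

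**Figure D3:**
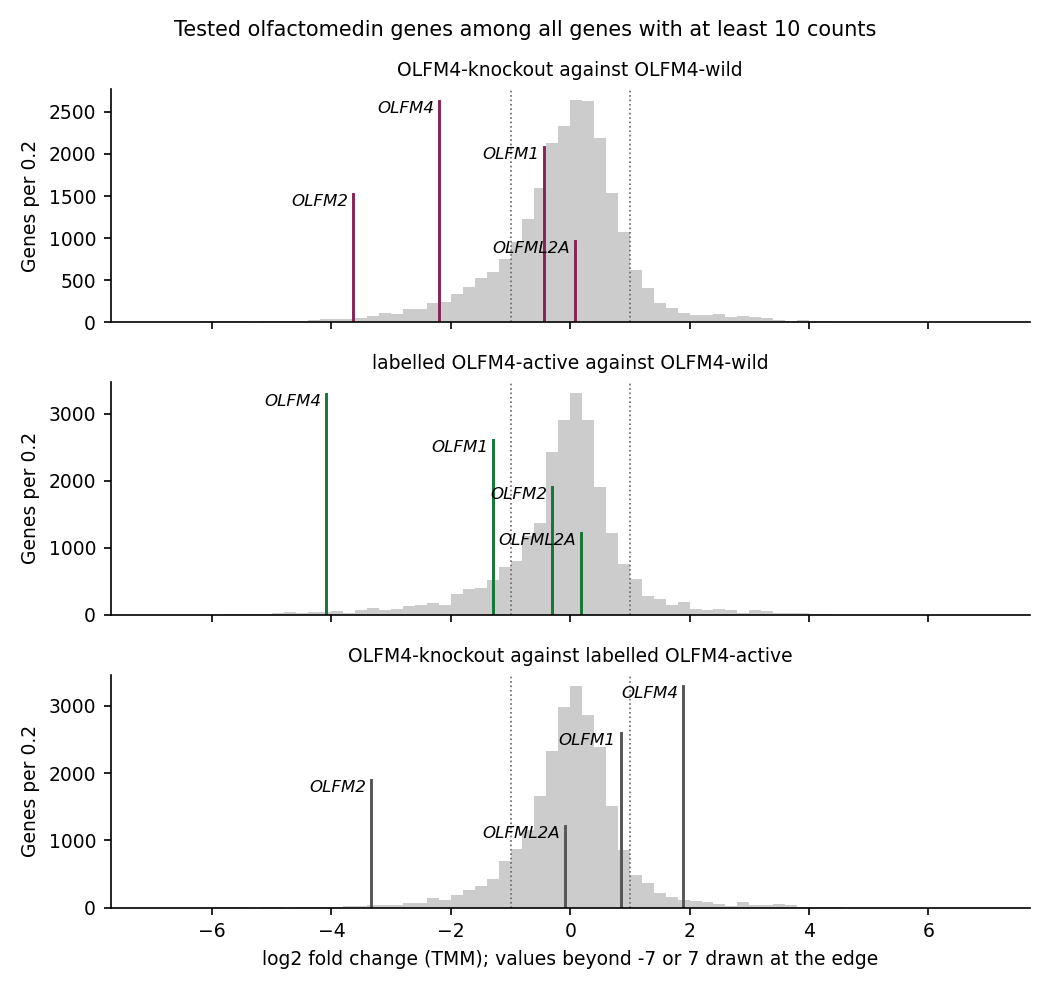
Histograms of the log2 fold change (horizontal axis, TMM scale) of the 24433 tested genes, 1 panel per comparison with the number of genes on the vertical axis, a vertical line at the value of each tested member (its height is for legibility) and dotted lines at 2-fold. OLFM4 stands in the lower tail in the upper panels (-2.20 and -4.10) and in the upper tail in the last (1.89), OLFM2 stands in the lower tail in both panels with OLFM4-knockout (-3.65 and -3.34), and OLFML2A stands at the centre of each.

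Because OLFML2A was nearly level on the TMM scale, the other members were also set against it within each library. No scaling between libraries touches this ratio. The choice of OLFML2A rests on its TMM values, so the ratios nearly repeat the TMM folds and are no separate support for them. With plain library totals OLFML2A was at -0.27 in OLFM4-knockout against OLFM4-wild and at -0.33 against OLFM4-active. For every 100 OLFML2A counts there were 16.8 OLFM4 counts (14.5 to 19.5) in OLFM4-wild, 3.45 (2.88 to 4.11) in OLFM4-knockout and 0.848 (0.484 to 1.38) in OLFM4-active. OLFM2 gave 1.18 (0.658 to 1.95), 0.0790 (0.0163 to 0.231) and 0.848 (0.484 to 1.38) per 100 OLFML2A counts. The 2 genes thus parted in the library labelled OLFM4-active, where they had 16 counts each. The log2 fold change of OLFM4 minus that of OLFML2A was -2.29 (-2.62 to -1.95) in OLFM4-knockout against OLFM4-wild, -4.31 (-5.15 to -3.57) in OLFM4-active against OLFM4-wild and 2.02 (1.27 to 2.88) in OLFM4-knockout against OLFM4-active. OLFM4 minus OLFM2 was 1.61 (-0.25 to 4.07), -3.81 (-5.21 to -2.44) and 5.39 (3.39 to 7.95), so that a difference between these genes lay outside counting error in the last 2 comparisons and not in the first. As a share of the counts of all 6 members (1509, 3949 and 1924), OLFM4 made up 14.2% (12.5% to 16.0%), 3.32% (2.78% to 3.92%) and 0.832% (0.476% to 1.35%), and OLFML2A 84.3%, 96.2% and 98.1%.

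Levels of different genes were compared per kilobase of exon. In OLFM4-wild the order was OLFML2A at 10.3 CPM per kb, OLFM4 at 4.14, OLFM2 at 0.335 and OLFM1 at 0.0539, each apart from the next by more than counting error, followed by OLFML3 at 0.0195 and OLFML2B at 0.0160, which overlapped with each other and with OLFM1. In OLFM4-knockout, OLFML2A (10.9 CPM per kb) and OLFM4 (0.898) again led, and OLFM1, OLFM2, OLFML3 and OLFML2B followed between 0.0413 and 0.0114 CPM per kb with overlapping neighbours. In OLFM4-active, OLFML2A stood at 11.7 CPM per kb, OLFM2 at 0.272 and OLFM4 at 0.236, and the last 2 overlapped. OLFM4 was therefore second in 2 libraries and no longer separable from OLFM2 in the third.

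The surroundings of OLFM4 were searched for a shift that covered more than the gene. No annotated gene overlaps it. SUGT1, a cochaperone gene that ends 0.328 Mb before it, was the only gene with more than 5 counts in any library among the 3 nearest protein-coding genes on each side, with 1213, 3603 and 1918 counts or 66.8, 70.2 and 80.3 CPM in OLFM4-wild, OLFM4-knockout and OLFM4-active. Its log2 fold change was 0.07 (-0.02 to 0.17) in OLFM4-knockout and 0.27 (0.16 to 0.37) in OLFM4-active against OLFM4-wild, and the first value turned to -0.28 with plain library totals. PCDH8 had 4, 0 and 0 counts, CNMD 0, 5 and 1, and PRR20A, PRR20B and PRR20C, about 4.09 Mb after OLFM4, had none.

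The other human genes with an olfactomedin domain are OLFM3, OLFML1, MYOC (myocilin, of the eye), GLDN (gliomedin, of peripheral nerve) and the latrophilins ADGRL1, ADGRL2 and ADGRL3, adhesion G protein-coupled receptors that carry the domain outside the cell. OLFM3 and MYOC had 0 counts in all libraries, OLFML1 had 0, 1 and 0, and GLDN 3, 0 and 0. The latrophilins were expressed, and all 3 were lower in the other libraries than in OLFM4-wild under each of the 5 scalings compared. ADGRL3 had 201, 249 and 111 counts in OLFM4-wild, OLFM4-knockout and OLFM4-active (11.1, 4.85 and 4.65 CPM), with log2 fold changes against OLFM4-wild of -1.19 (-1.46 to -0.91) and -1.25 (-1.60 to -0.91). ADGRL1 had 79, 94 and 46 counts in these libraries (4.35, 1.83 and 1.93 CPM), with -1.25 (-1.69 to -0.80) and -1.17 (-1.73 to -0.63). ADGRL2 parted from these: at 578, 1340 and 348 counts (31.8, 26.1 and 14.6 CPM) its value was -0.29 (-0.43 to -0.14) in OLFM4-knockout and -1.13 (-1.32 to -0.93) in OLFM4-active. Below -1 were thus 2 of the 3 tested in OLFM4-knockout (median -1.19) and 3 of 3 in OLFM4-active (median -1.17), and 0 of 3 in OLFM4-knockout against OLFM4-active (median 0.06). Of all tested genes, 16.4% and 14.7% were below -1 in the comparisons with OLFM4-wild.

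Known partners of the latrophilins and of OLFM1 and OLFML3 were read from a list of 11 genes, of which 9 had at least 10 counts in sum. All 9 were below 0 against OLFM4-wild in both libraries, with medians of -0.29 in OLFM4-knockout and -0.56 in OLFM4-active, where 50.1% and 50.2% of all tested genes were below 0. In OLFM4-knockout the BMP1 value of -0.01 (-0.13 to 0.12) turned to 0.0021 with DESeq2 size factors, and the intervals of RTN4R (-0.36 to 0.22) and BMP4 (-1.42 to 1.22) also included 0. Below -1 were 2 (FLRT1 and TENM2) in OLFM4-knockout and 3 (FLRT1, TENM2 and BMP4) in OLFM4-active, of 9, beside the same 16.4% and 14.7% of all tested genes. TENM2, a teneurin that binds latrophilins across the cell gap, was at 26.0 CPM in OLFM4-wild, 9.60 in OLFM4-knockout and 8.66 in OLFM4-active, with log2 fold changes of -1.44 (-1.62 to -1.25) and -1.58 (-1.83 to -1.35). TENM3 stood at 54.6, 31.9 and 37.1 CPM and TENM4 at 15.9, 9.29 and 12.4 CPM, lower than in OLFM4-wild in both but within 2-fold, which in OLFM4-knockout turned to beyond 2-fold (-1.13 for each) with plain library totals. FLRT1, another latrophilin ligand, had 34, 46 and 18 counts, with -1.07 (-1.73 to -0.38) and -1.29 (-2.22 to -0.45), and the more abundant FLRT2 (50.0, 40.8 and 36.3 CPM) and FLRT3 (38.3, 31.5 and 27.4 CPM) differed less. BMP1, the procollagen proteinase that OLFML3 binds, was at 40.0, 39.7 and 32.5 CPM, and RTN4R, the Nogo receptor, at 7.54, 7.17 and 4.85 CPM. BMP4 had 8, 20 and 1 counts, and its value of -2.90 (-8.87 to -0.50) in OLFM4-active rests on that 1 count. It was also the only gene of the list above 1 in OLFM4-knockout against OLFM4-active, where 0 were below -1 and the median was 0.20. TENM1 (5, 1 and 0 counts) and LINGO1 (0, 1 and 0) were too low to compare.

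Several of these genes are long, and gene length moved with the fold changes. Of the protein-coding tested genes, 1099 span at least 200 kb, and in OLFM4-knockout against OLFM4-wild 19.7% of these were below -1, with a median of -0.24. Of the 13681 shorter ones 10.6% were below -1, with a median of 0.08. In OLFM4-active against OLFM4-wild the medians were -0.02 and 0.02, with 16.8% and 10.5% below -1. ADGRL2 (688 kb), ADGRL3 (878 kb), TENM2 (1285 kb), TENM3 (659 kb) and TENM4 (788 kb) belong to the long genes, while ADGRL1 (58.4 kb), FLRT1 (83.2 kb), FLRT2 (124 kb), FLRT3 (14.6 kb) and OLFM4 itself (23.2 kb) do not. The part of length in these values was not tested.

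Proteins that OLFM4 is known to bind or act on were taken as a list of 9, of which 8 were tested and CXCL12 had 0 counts. NOD2, the sensor of bacterial cell wall fragments whose signalling OLFM4 restrains, was the 1 gene of these 8 below -1 against OLFM4-wild in both libraries. Of all tested genes, 16.4% in OLFM4-knockout and 14.7% in OLFM4-active were below -1, so 1 of 8 does not set this list apart. It had 136 counts in OLFM4-wild, 30 in OLFM4-knockout and 10 in OLFM4-active, or 7.48, 0.584 and 0.419 CPM. Its log2 fold change was -3.66 (-4.30 to -3.10) in OLFM4-knockout and -4.10 (-5.25 to -3.24) in OLFM4-active, and 0.44 (-0.59 to 1.68) between these libraries. NOD2 was thus low in both, whereas OLFM4 still separated them. Its relative NOD1 was nearly level at 13.9, 13.6 and 11.2 CPM.

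FZD10, a WNT receptor, was the 1 gene of the list above 1, beside 8.72% and 8.42% of all tested genes in the comparisons with OLFM4-wild. It had 10 counts in OLFM4-wild, 118 in OLFM4-knockout and 52 in OLFM4-active (0.550, 2.30 and 2.18 CPM), with log2 fold changes of 2.0 (1.13 to 3.16) and 1.93 (0.99 to 3.13) against OLFM4-wild. FZD7, a related receptor, had 44, 106 and 43 counts and a value of -0.24 (-0.75 to 0.31) in OLFM4-knockout. NDUFA13 (GRIM-19), a complex I subunit that binds OLFM4, was at 92.3, 147 and 88.4 CPM, and the lysosomal protease CTSD at 258, 434 and 285 CPM, so both were highest in OLFM4-knockout, at 0.67 (0.60 to 0.75) and 0.75 (0.70 to 0.80) against OLFM4-wild. The granule-activating protease CTSC (157, 163 and 140 CPM) and the adhesion protein CDH1 (275, 340 and 352 CPM) differed by less, and their sign in OLFM4-knockout turned with plain library totals. The medians of the 8 genes were 0.18 in OLFM4-knockout and -0.12 in OLFM4-active against OLFM4-wild, and 0.25 with 0 genes beyond 2-fold between OLFM4-knockout and OLFM4-active.

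**Figure D4:**
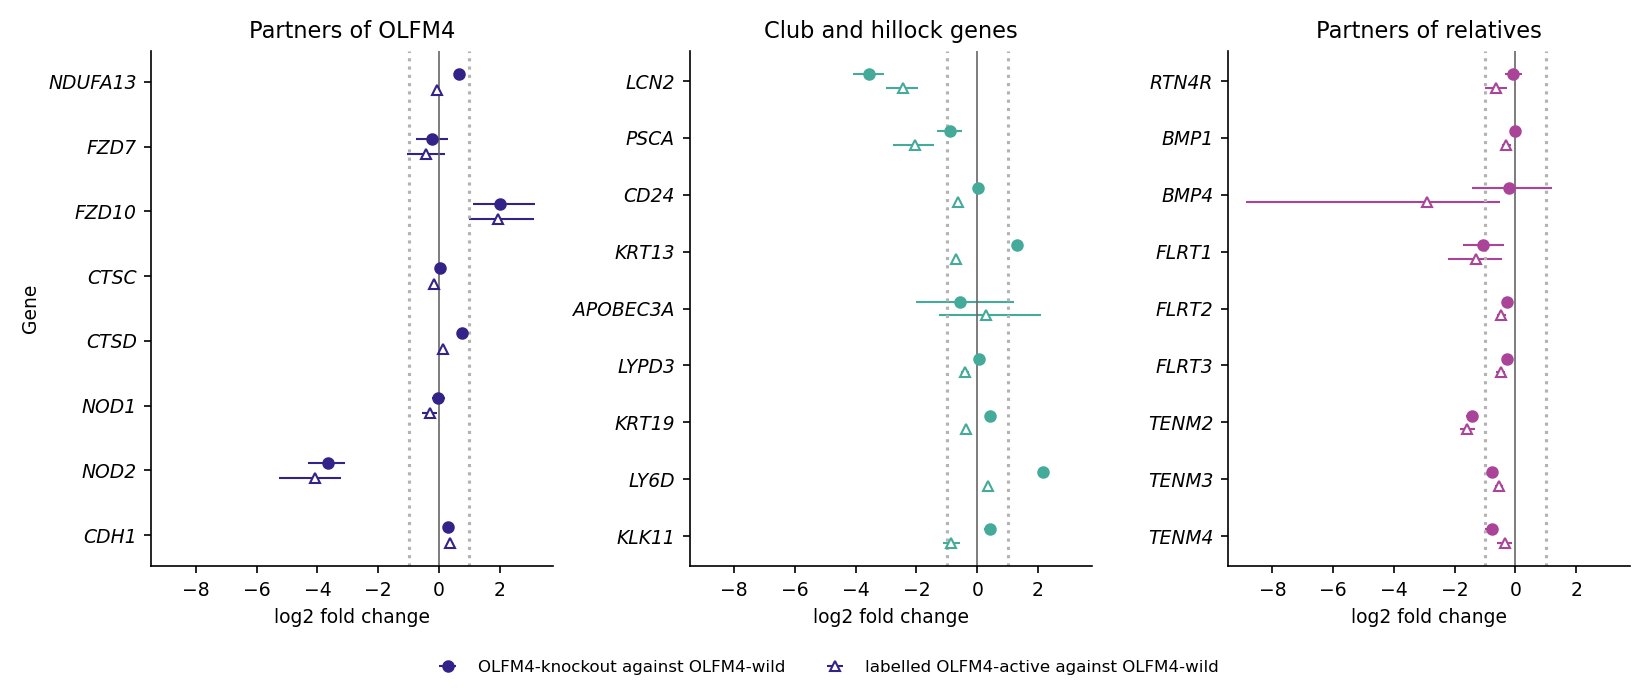
Log2 fold changes (horizontal axis) against OLFM4-wild of the tested partners of OLFM4, of the club and hillock genes (a list that also holds LY6D and KLK11) and of the partners of its relatives. Filled circles stand for OLFM4-knockout and open triangles for the library labelled OLFM4-active, with 95% counting intervals and dotted lines at 2-fold. NOD2 (-3.66 and -4.10) and LCN2 (-3.56 and -2.45) lie far below 0 in both libraries, FZD10 lies above 0 in both (2.0 and 1.93), KRT13 lies on opposite sides (1.30 and -0.71), and the partners of the relatives lie at or below 0, with the OLFM4-knockout intervals of BMP1, RTN4R and BMP4 including 0.

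Factors known to switch OLFM4 on were expressed in all libraries, apart from 1. Of 9 listed, SPI1 (PU.1, of blood cells) had 0 counts, and 0 of the other 8 passed 2-fold in any comparison, with medians of -0.12, -0.24 and 0.14. Of all tested genes, 74.8% to 81.5% also lay within 2-fold. NOTCH1 stood at 423, 395 and 338 CPM in OLFM4-wild, OLFM4-knockout and OLFM4-active, and its target HES1 at 78.2, 90.2 and 64.2 CPM. NFKB1 was at 76.3, 103 and 88.0 CPM, and 0.43 (0.35 to 0.52) above OLFM4-wild in OLFM4-knockout. RARA, the retinoic acid receptor, differed most, at 18.8, 31.4 and 28.8 CPM, and was 0.74 (0.57 to 0.92) and 0.62 (0.43 to 0.81) above OLFM4-wild.

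Stem cell genes that accompany OLFM4 in the intestine did not share its pattern as a group. All 6 listed were tested, with medians of 0.11, -0.21 and 0.44. Of all tested genes, 16.4% and 14.7% were below -1 in the comparisons with OLFM4-wild. LGR5, which marks crypt stem cells, had 8, 4 and 2 counts and was the 1 gene below -1 against OLFM4-wild in both libraries, with loosely set values of -2.42 (-4.68 to -0.60) and -2.16 (-5.67 to -0.07). ASCL2, a transcription factor of the same cells, went the other way at 11.9, 25.3 and 15.6 CPM, with 1.09 (0.88 to 1.30) and 0.39 (0.15 to 0.64), the first of which became 0.73 with plain library totals. AXIN2 had 2, 11 and 2 counts, and its value of 1.10 (-0.84 to 4.57) in OLFM4-knockout against OLFM4-active was the only one beyond 2-fold there, and became 0.86 with plain library totals.

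Club and hillock genes that have been found together with OLFM4 in prostate epithelium, a list the study drew in part from single-cell data of these cells, differed between the OLFM4-knockout and OLFM4-active libraries. The list also holds LY6D and KLK11. The paper gives these as stem or progenitor genes found with OLFM4 in RWPE1 cells, and not as club or hillock markers. Of 12 listed, 9 were tested, SCGB1A1 and SCGB3A1 had 0 counts and PIGR 0, 2 and 1. Against OLFM4-wild, 7 of the 9 were below 0 in OLFM4-active and 2 of them (LCN2 and PSCA) below -1, with a median of -0.64. In OLFM4-knockout 6 were above 0, which became 4 with plain library totals, with 2 (KRT13 and LY6D) above 1, 1 (LCN2) below -1 and a median of 0.05, and with plain library totals KRT13 was at 0.95 and PSCA at -1.26. Between OLFM4-knockout and OLFM4-active the median was 0.80, with 4 (PSCA, KRT13, LY6D and KLK11) above 1 and 1 (LCN2) below -1, where 7.90% and 10.6% of all tested genes lay. With plain library totals PSCA was at 0.90 and APOBEC3A at -1.09, which gives 3 above and 2 below.

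LCN2, an iron-trapping protein of neutrophil granules and inflamed epithelia, was lower than in OLFM4-wild in both libraries, as OLFM4 was. It had 168, 40 and 40 counts, or 9.25, 0.779 and 1.67 CPM, with log2 fold changes of -3.56 (-4.10 to -3.06) in OLFM4-knockout and -2.45 (-3.00 to -1.96) in OLFM4-active. Unlike OLFM4, it was lowest in OLFM4-knockout, at -1.10 (-1.77 to -0.43) against OLFM4-active. Of the 7 listed genes of neutrophil specific granules, LCN2 was the only one tested: LTF, CRISP3 and MMP8 had 0 counts in all libraries, and CAMP, CEACAM8 and PGLYRP1 had at most 4. KRT13, a keratin of hillock cells, was at 255, 628 and 156 CPM, so the OLFM4-knockout and OLFM4-active libraries lay on opposite sides of OLFM4-wild. PSCA, a surface antigen of luminal progenitors, had 83, 125 and 26 counts and in CPM followed the order of OLFM4, with -0.91 (-1.32 to -0.49) in OLFM4-knockout and -2.05 (-2.76 to -1.42) in OLFM4-active. The more abundant CD24 (229, 231 and 147 CPM), KRT19 (353, 471 and 271 CPM) and LYPD3 (57.7, 59.8 and 43.4 CPM) were also lowest in OLFM4-active. On the TMM scale they were not highest in OLFM4-wild, as OLFM4 was. Against OLFM4-wild they were at 0.01, 0.42 and 0.05 in OLFM4-knockout, which became -0.34, 0.06 and -0.30 with plain library totals. On that scale CD24 and LYPD3 were at -0.76 and -0.53 in OLFM4-active, so these genes then took the order of OLFM4 and KRT19 did not.

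The genes whose pair of log2 fold changes against OLFM4-wild lay nearest to that of OLFM4 were sought among the 16599 genes that averaged 1 CPM or more. TMEM229B, a membrane protein gene on chromosome 14, was nearest, at a distance of 0.0912 on the log2 scale, with 47, 30 and 3 counts. ATP10B, a phospholipid flippase gene on chromosome 5, followed at 0.209 with 242, 144 and 21 counts, close to those of OLFM4 in each library. DCP1B, of the mRNA decapping complex, was at 0.338 (74, 37 and 6 counts), SCNN1G, a subunit of the epithelial sodium channel, at 0.359 (57, 27 and 4 counts), and the long noncoding RNA gene ENSG00000228113 at 0.443 (228, 103 and 18 counts). None lies on chromosome 13. In OLFM4-active TMEM229B was at the floor of 3 counts, and SCNN1G (4) and DCP1B (6) lay just above it. The order by distance is therefore loosely set, and no counting interval was computed for it. TMEM229B, DCP1B and SCNN1G were above 1 CPM in OLFM4-wild only, so they passed the filter through that library. With 3 libraries the likeness rests on 2 fold changes that share OLFM4-wild, so it is a description of 3 values per gene.

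**Figure D5:**
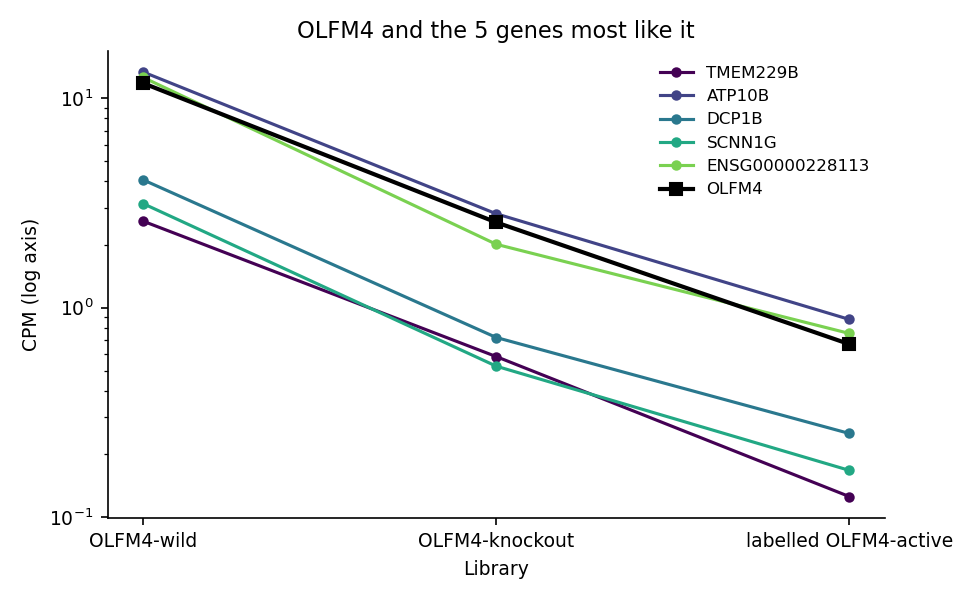
CPM (vertical axis, log scale) of OLFM4 (black squares) and the 5 genes nearest to it (coloured circles) in the 3 libraries, 1 point per library. All 6 genes are highest in OLFM4-wild and lowest in the library labelled OLFM4-active, OLFM4 at 11.8, 2.55 and 0.670 CPM and ATP10B at 13.3, 2.81 and 0.879 CPM. The 5 genes were chosen for fold changes near those of OLFM4, so this shared order follows from the choice.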

How the data were processed

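Total RNA from 3 RWPE1 cultures was sequenced with a stranded, ribosome-depleted kit. The authors trimmed reads with cutadapt, aligned them with HISAT2 to GRCh38 and counted uniquely mapped pairs per gene with featureCounts, reverse-stranded. The GENCODE release was not given in the sources used here. The deposited values are whole read counts for 58037 genes, not normalized, with 1 column per library and 0 columns left unused. Names were taken from GENCODE 44, which matched 98.1% of identifiers. The members and the 14 gene lists were chosen with earlier results of these data known.

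Counts were scaled by TMM in edgeR 4.0.16 (R 4.3.3). Log2 fold changes used an offset of 0.5 counts, as limma-voom does. No test across conditions was possible with 1 library each, so called means beyond 2-fold, over genes with at least 10 counts summed over the 3 libraries. Intervals (95%) are exact Clopper-Pearson for levels and ratios and exact conditional for differences between genes (scipy 1.17.1). They cover counting error only and treat each read as independent. Reads without molecular identifiers are not independent molecules, so the intervals may be too narrow even for counting error. The floor for a count of 0 was 3 counts. Named genes were the members, all genes of the lists, the 3 nearest protein-coding genes on each side of OLFM4 and the 5 genes nearest to OLFM4 in fold change. Alternatives were library totals, DESeq2 1.42.0 size factors, upper-quartile factors, TMM without the 10 most abundant genes, offsets of 1 and 5, thinning to equal depth, other count filters and longest transcripts for length. The calculations were tested on simulated counts in which as many genes were raised as lowered in 1 library. The deposited counts are less even, with 2130 genes above and 4015 below 2-fold in OLFM4-knockout against OLFM4-wild. The simulation therefore cannot judge the scaling of these data. The level of 1 marker and the summed level of the luminal list are not reported here.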

Additional observations from a re-analysis of the deposited data

How the results depend on the processing

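Over the alternatives, 77 of the 84 log2 fold changes of the members lay within the counting interval of the value reported, 7 lay outside and none that was called changed sign. OLFM4 ranged from -2.56 to -2.06 in OLFM4-knockout against OLFM4-wild, from -4.21 to -3.78 in OLFM4-active against OLFM4-wild and from 1.59 to 2.06 in OLFM4-knockout against OLFM4-active. The -2.56 came from plain library totals and lay outside the interval. OLFM2 moved to -1.83 and -1.63 with thinned counts in the comparisons with OLFM4-knockout, still beyond 2-fold. OLFM1 in OLFM4-knockout against OLFM4-active ran from -0.28 to 0.84, and its value in OLFM4-active against OLFM4-wild from -1.40 to -0.79, within 2-fold with an offset of 5 counts and with thinning. Ordering by the longest transcript exchanged OLFM2 and OLFML3 in OLFM4-knockout, 2 positions in all. Of the 5 genes nearest to OLFM4, 2 were shared when a mean of 5 CPM was required and 4 with library totals.

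The counts of genes beyond 2-fold moved with the filter and with the rule for a call. Without a filter, 3338 were higher and 7970 lower in OLFM4-knockout against OLFM4-wild, 4707 and 7134 in OLFM4-active against OLFM4-wild, and 4017 and 5901 in OLFM4-knockout against OLFM4-active. With a mean of at least 1 CPM these were 957 and 1255, 627 and 1117, and 490 and 563, of 16600 genes. As shares these were 5.77% and 7.56%, 3.78% and 6.73%, and 2.95% and 3.39%. With the whole interval required beyond 2-fold they were 522 and 1278, 329 and 896, and 194 and 474. Library totals gave 1183 higher in OLFM4-knockout against OLFM4-wild. The filters change which genes are compared, the interval rule keeps the same 24433 genes, and the cause of the shift with library totals was not tested. The split by gene span and the values of listed genes with library totals were added after seeing the data. Without replicates no library could be left out of a group. No paired analysis was possible because each label has 1 library and no replicate number. At 1 to 16 counts, OLFM1, OLFM2, OLFML2B and OLFML3 are limited by depth.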
